A study of Homo sapiens with 12 samples.

Results

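Drug efflux transporters of the ATP-binding cassette (ABC) family were followed in HK-2 cells, human kidney cells of proximal tubule origin that were immortalised for culture, after exposure to a compound that the labels call Kbr. The group comprised 7 genes (ABCB1, ABCC1, ABCC2, ABCC3, ABCC4, ABCC5 and ABCG2) of the 19775 genes that had a probe set of their own, and was defined by name, through every probe set annotated to one of these symbols. They were represented by 18 probe sets with a single symbol and by 1 probe set, 209994_s_at, that is annotated to both ABCB4 and ABCB1. These proteins use the energy of ATP to carry drugs, bile acids and conjugated metabolites out of the cell. ABCB1, known as P-glycoprotein or MDR1, exports mostly uncharged or cationic amphipathic drugs, and the ABCC proteins, known as MRPs, export organic anions, among them conjugates with glutathione, glucuronate or sulfate. ABCG2, known as BCRP, exports both amphipathic drugs and anions such as sulfate conjugates and urate. In the proximal tubule ABCB1, ABCC2, ABCC4 and ABCG2 lie in the apical membrane, where they move substrates into the urine.

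Messenger RNA was measured on Affymetrix arrays in 12 cultures that form 4 groups of 3 biological replicates: a high dose of Kbr for 24 h, its control at 24 h, the same dose for 48 h, and its control at 48 h. Control cultures received the vehicle of the compound, and all cultures were grown in the same hormone-supplemented medium and treated near confluence. The submitters' aim was to find signatures of kidney toxicity; the programme's other compounds were not used here, and the sources used here give neither a concentration nor a vehicle. All values are log2 GCRMA values, which are array summaries per probe set corrected for background binding, and a difference of 1 is a 2-fold difference. A gene was read from its single-symbol probe set with the highest mean and was tested if 3 or more arrays read above 4 on that probe set, as held for 10574 genes. Rises and falls were called with limma at a Benjamini-Hochberg adjusted p under 0.05 over all tested genes, SE is the moderated standard error of a log2 fold change, and SD is the spread over 3 arrays. Replicate numbers were shared between the groups and arrays with the same number deviated together, so a value from the fit with that number as a block is added wherever it changed a call or a count given here. Since a culture was measured as a whole, a lower share of cells that express a gene and less RNA per cell cannot be told apart.

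The array medians lay between 2.89 and 2.96. Kbr 48 h replicate 3 lay farther from its group mean than any other array, with a root mean square deviation of 0.290 over the tested genes against 0.164 to 0.228 in the other 11 arrays. Signals of 18S ribosomal RNA were 8.14 ± 0.28 in Kbr and 7.64 ± 0.11 in control cultures at 24 h, and 8.58 ± 0.24 in Kbr and 8.07 ± 0.20 in control cultures at 48 h (SD, n = 3 each), and their part in the results below was not tested. Of 10 proximal tubule markers 2 passed the expression filter, the kidney cadherin CDH6 and the transcription factor gene PAX8, whereas LRP2, CUBN, SLC34A1, SLC5A2, AQP1, GGT1, ANPEP and MME did not. All 5 markers of simple epithelium passed. The line thus carried epithelial transcripts, while most of the transport and brush border genes that define the tubule in the kidney were below the filter.

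Promoter sequence is shown for 3 of the transporters described below, ABCB1 and ABCC4, which were lower after Kbr, and ABCC5, which was not called. Windows were taken from a supplied table of RefSeq promoters (GRCh38.p14), matched by symbol for ABCB1, ABCC2, ABCC4, ABCC5 and ABCG2, and the promoters of ABCC1 and ABCC3 were not analysed here. The 250 bases before the start of the gene record are printed 5′ to 3′ on the gene's strand, at chr7:87713296-87713545 for ABCB1, chr13:95301452-95301701 for ABCC4 and chr3:184017885-184018134 for ABCC5, all on the minus strand. Capitals mark matches on either strand to the antioxidant response element core TGACNNNGC, the xenobiotic response element core GCGTG, the GC box GGGCGG and the box CCAAT.
ABCB1: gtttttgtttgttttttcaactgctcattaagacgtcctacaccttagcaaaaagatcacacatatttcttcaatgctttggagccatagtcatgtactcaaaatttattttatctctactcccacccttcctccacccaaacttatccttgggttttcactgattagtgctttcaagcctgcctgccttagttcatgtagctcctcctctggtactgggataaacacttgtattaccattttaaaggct
ABCC4: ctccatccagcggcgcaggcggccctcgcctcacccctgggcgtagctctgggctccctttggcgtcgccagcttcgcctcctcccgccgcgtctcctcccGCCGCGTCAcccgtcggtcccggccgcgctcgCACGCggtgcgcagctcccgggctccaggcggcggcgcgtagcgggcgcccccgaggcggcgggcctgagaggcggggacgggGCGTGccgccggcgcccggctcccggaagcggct
ABCC5: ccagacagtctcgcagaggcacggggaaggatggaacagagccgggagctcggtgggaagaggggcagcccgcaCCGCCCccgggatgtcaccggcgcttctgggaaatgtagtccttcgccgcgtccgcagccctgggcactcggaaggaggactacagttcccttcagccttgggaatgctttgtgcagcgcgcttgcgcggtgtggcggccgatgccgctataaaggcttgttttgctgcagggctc
The ABCC4 window held 1 match to TGACNNNGC on its minus strand, written GCCGCGTCA here and starting 149 bases before the start of the record, and 2 matches to GCGTG, which start 117 bases (as CACGC) and 34 bases before it. Of 35116 promoter windows of this length, 10.9% held TGACNNNGC and 32.2% held GCGTG. The ABCC5 window held 1 GC box, as CCGCCC at 176 bases before the start, a motif found in 42.6% of the windows. The ABCB1 window held 0 matches to the 4 motifs, CCAAT included, which 32% of the windows held; ABCB1 is also known to be transcribed from a start farther inside its record, so this says only that these letters are not in this window. None of the printed matches overlapped another, and a match describes letters and not the binding of a factor.

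Of the 7 transporter genes, 5 passed the expression filter, ABCB1, ABCC1, ABCC3, ABCC4 and ABCC5. ABCG2 and ABCC2 did not, and these arrays give no measured change for them. ABCG2, the breast cancer resistance protein, read between 2.18 and 2.21 in all 12 arrays on 209735_at. ABCC2, an MRP of the apical membrane that exports glutathione and glucuronide conjugates, read 4.40, 2.74 and 2.98 on 206155_at in the Kbr arrays at 48 h, against 2.57, 2.57 and 2.53 in the controls. At 24 h the same probe set read 2.60, 2.62 and 2.61 in Kbr and 2.56, 2.56 and 2.59 in control arrays. A single array, Kbr 48 h replicate 1, thus exceeded the filter for ABCC2.

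**Figure D1:**
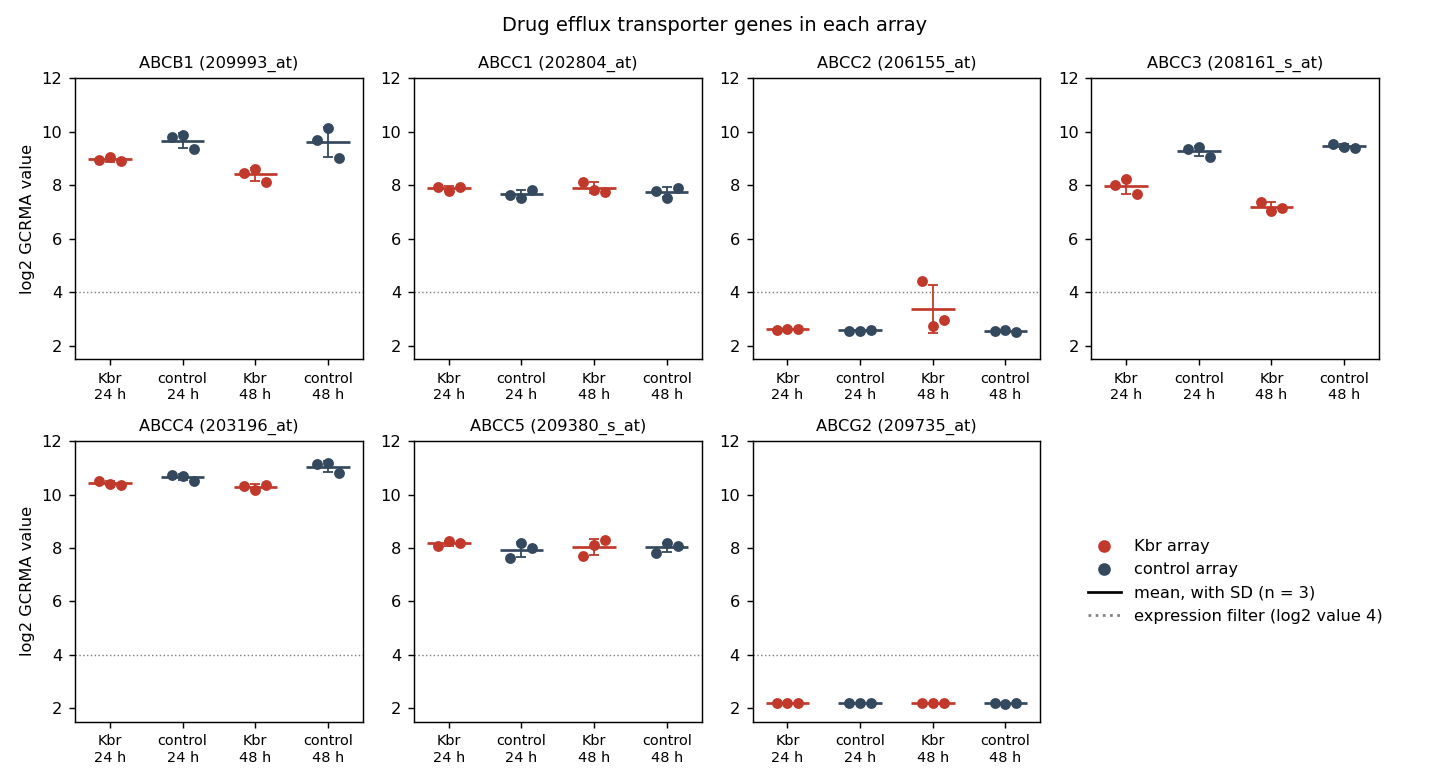
Log2 GCRMA value of each of the 7 transporter genes (1 panel per gene, the probe set in brackets) by treatment and time; points are arrays, lines the mean and bars the SD (n = 3), and the dotted line is the expression filter at 4. All Kbr arrays of ABCC3 and ABCB1 lay below all controls at both times, those of ABCC4 did so at 48 h, and ABCC2 and ABCG2 lay under the filter in all arrays but 1.

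The comparison at 24 h asked which of these genes had moved after the shorter exposure. ABCC3 fell, 1 of the 5 tested members, and none rose. At the adjusted threshold, without the replicate block, 20.0% of all tested genes were lower and 12.4% higher at 24 h. At an unadjusted p under 0.05, by limma, 0 members were higher and 2 were lower. Of all 10574 tested genes 1815 were higher and 2813 lower at that unadjusted threshold. With the replicate block 1 member was higher and 2 were lower at it, against 2311 and 3533 of all tested genes. ABCC3, known as MRP3, is an exporter of the basolateral membrane for glucuronides and bile acids. It read 8.01, 8.23 and 7.67 in the Kbr arrays (208161_s_at), against 9.36, 9.42 and 9.05 in the controls. The lowest control array was higher than every Kbr array. The log2 fold change was -1.30 (SE 0.15, 95% confidence interval -1.64 to -0.96, adjusted p = 0.000275), a level 2.47-fold lower in Kbr cultures.

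ABCB1 read 8.96, 9.08 and 8.90 in the Kbr arrays at 24 h (209993_at), against 9.81, 9.87 and 9.35 in the controls. The groups did not overlap, as was so with the Kbr arrays lower for 29.2% of all tested genes. The difference of -0.70 (SE 0.25, 95% confidence interval -1.25 to -0.15) missed the threshold (adjusted p = 0.0516) and passed it in the blocked fit (adjusted p = 0.00431). With that block 2 of 5 members were called lower, against 29.4% of all tested genes. Leaving out Kbr 48 h replicate 3 (0.0478), replicate 3 of the 24 h controls (0.0339), or replicate 2 (0.0265) or 3 (0.0158) of the 48 h controls also brought the adjusted p of ABCB1 under the threshold. Without the 24 h control array the difference itself was -0.86, and without an array of 48 h it remained -0.70.

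The other 3 tested members did not pass at 24 h. ABCC4, known as MRP4, an exporter of cyclic nucleotides, urate and conjugated steroids, read 10.52, 10.41 and 10.38 in Kbr arrays (203196_at), against 10.73, 10.71 and 10.52 in controls. The groups overlapped at their edges, both at 10.52, and the difference was -0.22 (SE 0.12, 95% confidence interval -0.48 to 0.04, adjusted p = 0.181). ABCC1, known as MRP1, which exports glutathione conjugates and glutathione itself, read 7.94, 7.79 and 7.92 in Kbr arrays (202804_at), against 7.65, 7.53 and 7.83 in controls, a difference of 0.22 (SE 0.13, 95% confidence interval -0.08 to 0.51, adjusted p = 0.239). ABCC5, known as MRP5, a further exporter of cyclic nucleotides, read 8.07, 8.27 and 8.18 in Kbr arrays (209380_s_at), against 7.63, 8.20 and 8.0 in controls (0.23, SE 0.18, 95% confidence interval -0.16 to 0.63, adjusted p = 0.336). For both genes the groups overlapped, and the intervals leave room for a rise as for no change.

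At 48 h the comparison asked the same after the longer exposure. ABCC3, ABCB1 and ABCC4 fell, 3 of the 5 tested members, against 32.8% of all tested genes that were lower and 26.9% that were higher. ABCC3 read 7.39, 7.05 and 7.15 in Kbr arrays, against 9.55, 9.42 and 9.39 in controls. The gap between the groups was wider than 2 log2 units for each pair of arrays with the same number. The log2 fold change was -2.26 (SE 0.15, 95% confidence interval -2.60 to -1.91, adjusted p = 1.59e-06), a level 4.77-fold lower in Kbr cultures.

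ABCB1 read 8.48, 8.63 and 8.14 in Kbr arrays at 48 h, against 9.71, 10.14 and 9.04 in controls. The control arrays spread more than the Kbr arrays, and the lowest of them still lay above the highest Kbr array. The log2 fold change was -1.21 (SE 0.25, 95% confidence interval -1.76 to -0.67, adjusted p = 0.00153), a 2.32-fold lower level. ABCC4 read 10.33, 10.18 and 10.37 in Kbr arrays at 48 h, against 11.14, 11.19 and 10.80 in controls, without overlap. It was lower by 0.75 on the log2 scale (fold change -0.75, SE 0.12, 95% confidence interval -1.01 to -0.49, adjusted p = 0.000263), a 1.68-fold lower level. Groups that did not overlap, with the Kbr arrays lower, were seen for 34.2% of all tested genes at 48 h. Each of the 3 falls was called without Kbr 48 h replicate 3 as well, at -2.23 for ABCC3 (adjusted p = 8.15e-06), -1.08 for ABCB1 (0.00678) and -0.79 for ABCC4 (0.000585).

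ABCC1 and ABCC5 did not pass at 48 h. ABCC1 read 8.14, 7.81 and 7.76 in Kbr arrays, against 7.79, 7.53 and 7.89 in controls (0.17, SE 0.13, 95% confidence interval -0.13 to 0.46, adjusted p = 0.300). ABCC5 read 7.72, 8.12 and 8.31 in Kbr arrays, against 7.82, 8.17 and 8.07 in controls (0.024, SE 0.18, 95% confidence interval -0.37 to 0.42, adjusted p = 0.916). In both genes the Kbr and control arrays overlapped, and replicate 3 of the Kbr arrays at 48 h was the highest for ABCC5.

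**Figure D2:**
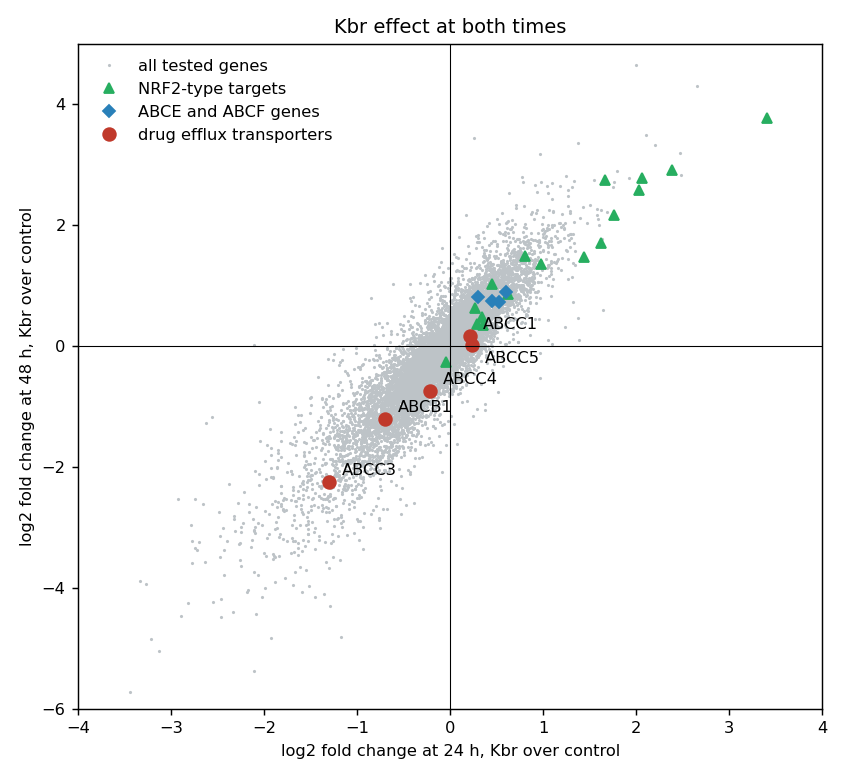
Log2 fold change of Kbr over control at 24 h (horizontal axis) and at 48 h (vertical axis) for all 10574 tested genes (grey), with the 5 tested transporters in red, NRF2-type targets as green triangles and ABCE and ABCF genes as blue diamonds. ABCC3 lay at -1.30 and -2.26, ABCB1 at -0.70 and -1.21 and ABCC4 at -0.22 and -0.75, while ABCC1 and ABCC5 lay close to 0 at both times.

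The 5 tested members had a median log2 fold change of -0.22 at 24 h and -0.75 at 48 h, and the median over all tested genes was -0.058 at 24 h and -0.056 at 48 h. Of all tested genes 3.17% had a lower fold change than ABCC3 at 24 h and 2.75% at 48 h. For ABCB1 these shares were 13.0% and 11.8%, and for ABCC4 37.4% and 21.6%. ABCC1 and ABCC5 lay in the upper part of the distribution at 24 h, with 75.1% and 76.6% of genes below them, and at 63.6% and 54.9% at 48 h. ABCC3 was the 1 member called lower at both times, as 18.5% of all tested genes were. With the replicate block ABCB1 was called at both times too, as 26.6% of all tested genes were.

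Whether the effect of Kbr differed between the times was tested as the difference of the effects, 48 h minus 24 h. It was called for ABCC3, 1 of 5 members, at -0.95 (SE 0.22, adjusted p = 0.0345), against 3.49% of all tested genes called in that direction. Leaving out 1 array brought the adjusted p to 0.0820 (Kbr 24 h replicate 1), 0.0704 (Kbr 24 h replicate 2), 0.0857 (Kbr 48 h replicate 2), 0.0851 (control 24 h replicate 3), 0.0776 (control 48 h replicate 1) and 0.0685 (control 48 h replicate 2), which ended the call each time. So did dropping the expression filter (adjusted p = 0.0664). For ABCC4 the difference was -0.53 (SE 0.17, adjusted p = 0.0815), which passed with the replicate block (0.0319) and without control 48 h replicate 3 (-0.65, adjusted p = 0.0337). With the block 11.4% of all tested genes were called for this difference in the same direction. The difference was -0.51 for ABCB1 (adjusted p = 0.409), -0.048 for ABCC1 (0.907) and -0.21 for ABCC5 (0.661), and none of these passed.

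Control cultures at 48 h were set against those at 24 h to see how the transporters moved with time in culture alone. None of the 5 members was called by limma, while 4.03% of all tested genes were called. At an unadjusted p under 0.05, by limma, 1 member passed, as did 2318 of all 10574 tested genes. That member was ABCC4, at 11.14, 11.19 and 10.80 in control arrays at 48 h against 10.73, 10.71 and 10.52 at 24 h. The arrays did not overlap, as with the 48 h arrays higher in 12.3% of all tested genes, and the difference was 0.39 (SE 0.12, adjusted p = 0.0878). It passed with the replicate block (adjusted p = 0.0272), in which 8.62% of all tested genes were called higher, and without control 48 h replicate 3 (0.51, adjusted p = 0.0297). The Kbr arrays of ABCC4 lay between 10.38 and 10.52 at 24 h and between 10.18 and 10.37 at 48 h, so the fall called at 48 h was measured against controls that read higher than at 24 h. The other 4 members differed by -0.047 (ABCB1) to 0.18 (ABCC3) between the control groups, with adjusted p between 0.536 and 0.937.

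Probe sets of 1 gene read different stretches of its transcripts, so they were also tested singly, 14 of the 18 with a single symbol passing the filter. At 24 h 3 of 14 were lower, and 4 with the replicate block, against 14.4% of all tested probe sets without the block. At 48 h 8 of 14 were lower, and 9 with the block, against 27.8% without it. The share of all probe sets called in the blocked fit is not given here, so the blocked counts have no like share beside them. In both comparisons 0 of the 14 were higher, also at an unadjusted p under 0.05. The probe sets below the filter were 206155_at of ABCC2 and 209735_at of ABCG2, given above, 226363_at of ABCC5 at 2.60 to 3.39 and 243928_s_at of ABCC4 at 2.44 to 2.55.

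ABCB1 fell on each of its probe sets at 48 h. Its second probe set, 243951_at, read 6.35, 6.57 and 6.24 in Kbr arrays at 24 h, against 7.16, 7.13 and 6.69 in controls, and 5.56, 5.81 and 5.80 in Kbr arrays at 48 h, against 7.35, 7.55 and 6.87 in controls. The Kbr arrays were below all controls at each time. It fell at 24 h (-0.61, adjusted p = 0.0356) and at 48 h (-1.53, adjusted p = 6.2e-05). At 24 h the call of 243951_at was lost when Kbr replicate 1 (adjusted p = 0.0918) or 3 (0.113) or control replicate 1 (0.126) or 2 (0.106) of that time was left out, after quantile normalization (0.0996) and without the expression filter (0.105). The probe set shared with ABCB4, 209994_s_at, read 9.29, 9.52 and 9.21 in Kbr arrays at 24 h, against 10.07, 10.41 and 9.76 in controls. At 48 h it read 8.81, 8.96 and 8.58 in Kbr arrays, against 10.08, 10.47 and 9.64 in controls. It fell at 24 h (-0.74, adjusted p = 0.0296) and at 48 h (-1.28, adjusted p = 0.000562). Its 24 h call was lost under omission of the same arrays (adjusted p = 0.0805 and 0.0931 for the Kbr arrays, 0.0785 and 0.104 for the controls) and without the expression filter (0.0985). ABCB4, which carries phospholipid into bile, had 2 probe sets of its own, and both read between 2.13 and 2.20, below the filter, in all 12 arrays.

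ABCC3 was read by 5 probe sets that did not behave alike. On 209641_s_at it read 6.98, 6.87 and 6.73 in Kbr arrays at 24 h, against 7.91, 7.72 and 7.53 in controls, and 6.30, 6.61 and 6.74 in Kbr arrays at 48 h, against 7.73, 7.55 and 7.98 in controls. That probe set fell at 24 h (-0.86, adjusted p = 0.00292) and at 48 h (-1.21, adjusted p = 8.45e-05), without overlap of the groups. On 239217_x_at it fell by 0.86 at 48 h (adjusted p = 0.0296), with Kbr arrays at 5.98, 4.83 and 5.79 and controls at 6.14, 6.23 and 6.82, a call lost when Kbr 48 h replicate 2 or control 48 h replicate 3 was left out (0.109 in either case). On 230682_x_at the 48 h difference was -0.34 (adjusted p = 0.0531, and 0.0389 with the replicate block). The remaining probe set, 242553_at, lay between 5.43 and 5.83 in the 6 Kbr arrays and between 5.21 and 6.22 in the 6 controls. It differed by 0.085 at 24 h and by -0.015 at 48 h (adjusted p = 0.959). It is the only 1 of the 5 without a suffix _s_at or _x_at, which Affymetrix gives to probe sets whose probes can match further transcripts, so both ABCC3 calls end where unsuffixed probe sets are preferred. With the mean over a gene's probe sets, the ABCC3 difference between the times was -0.38 and was not called (adjusted p = 0.104).

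ABCC4 fell on 3 of 3 tested probe sets at 48 h. On 1555039_a_at it read 7.83, 7.97 and 8.29 in Kbr arrays, against 8.50, 8.65 and 8.65 in controls (-0.57, adjusted p = 0.00264). On 1554918_a_at it read 8.86, 9.02 and 9.26 in Kbr arrays, against 9.23, 9.68 and 9.44 in controls (-0.40, adjusted p = 0.0332). The groups overlapped on 1554918_a_at, and its call was lost when Kbr replicate 1 (0.119) or 2 (0.0813) or control replicate 2 (0.127) or 3 (0.0660) of that time was left out. The second probe sets of ABCC1 and ABCC5 moved as little as the first. ABCC1 read 5.57 to 6.03 in Kbr and 5.54 to 6.06 in control arrays on 202805_s_at over both times, and ABCC5 read 5.35 to 5.63 in Kbr and 5.31 to 5.37 in control arrays on 1558460_at. The ABCC5 difference on 1558460_at at 48 h was 0.14 (adjusted p = 0.202) and passed after quantile normalization (0.33, adjusted p = 0.0154).

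**Figure D3:**
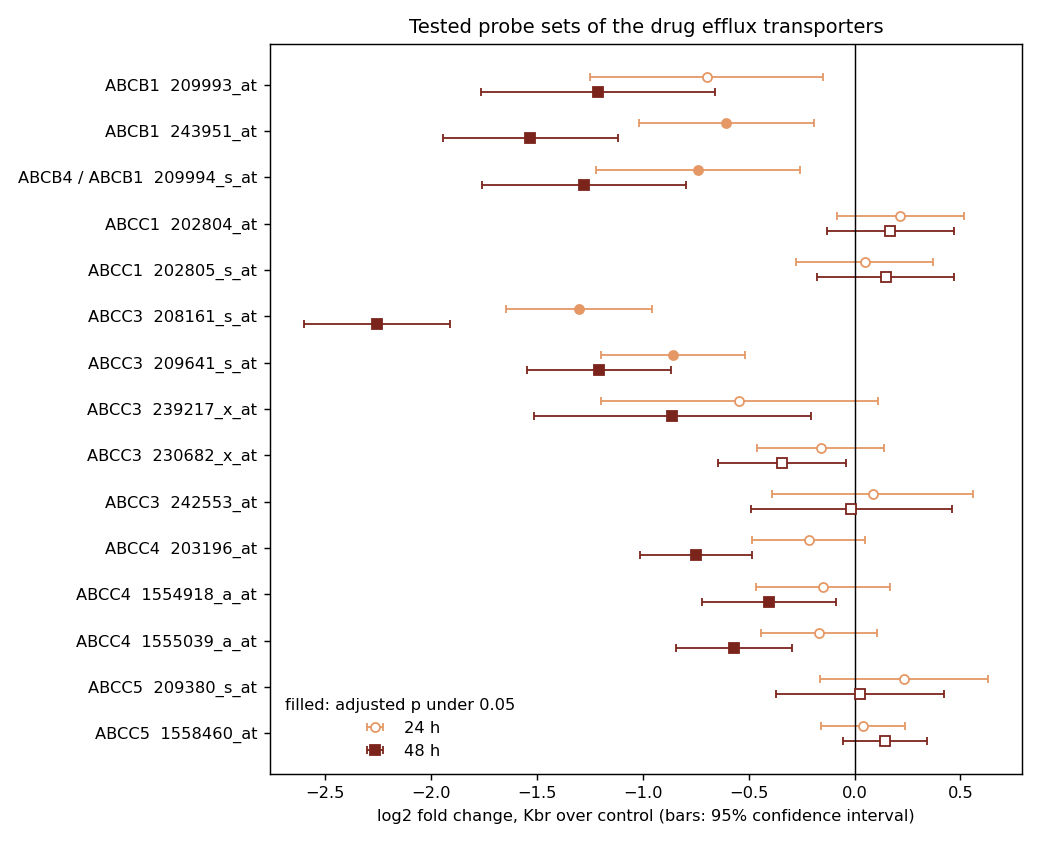
Log2 fold change of Kbr over control for each tested probe set of the transporters at 24 h (circles) and 48 h (squares), with 95% confidence intervals; filled symbols passed an adjusted p of 0.05. The ABCB1 probe sets and 208161_s_at and 209641_s_at of ABCC3 lay well left of 0 at 48 h, whereas 242553_at of ABCC3 lay at -0.015.

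For each called gene the 3 tested genes with the most similar course were found as those with the smallest root mean square difference of mean-centred log2 values over the 12 arrays. ABCC3 was followed most closely by RPUSD3 (0.152 log2 units), TSPAN31 (0.161) and RIMS2 (0.176), against an SD of 0.988 of ABCC3 over the arrays. For ABCB1, with an SD of 0.613, they were ARHGEF40 (0.183), FKBP7 (0.190) and C6orf89 (0.196). For ABCC4, with an SD of 0.317, they were LTAP1 (0.0865), MAN2A1 (0.0879) and IMMP2L (0.0926). None of these 9 genes is a transporter of the ABC family.

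The other ABC genes went in several directions. Of 12 listed genes of subfamily A, which mostly move lipids, 5 were tested and 3 fell at 48 h, and with the replicate block 4 fell and 1 rose. Without the block 32.8% of all tested genes were lower and 26.9% higher at 48 h, and the blocked shares at 48 h are not given here. ABCA3, which loads lipid into lamellar bodies, fell to 4.28 in Kbr cultures against 6.80 in controls (-2.52, SE 0.21, adjusted p = 3.96e-06). ABCA12, a lipid transporter of the skin barrier, averaged 7.21 in Kbr and 8.91 in control cultures (-1.70, SE 0.22, adjusted p = 7.13e-05), and ABCA7 fell by 1.53 (SE 0.31). At 24 h ABCA12 averaged 7.11 in Kbr and 7.98 in control cultures. Its controls were thus higher at 48 h than at 24 h (0.93, adjusted p = 0.0449). ABCC10, the 1 tested gene of 7 further genes of subfamily C and known as a drug exporter in its own right, averaged 5.74 in Kbr and 6.89 in control cultures at 48 h (-1.15, SE 0.26, adjusted p = 0.00302). Among 6 tested genes of subfamily B, ABCB10 of the mitochondrial inner membrane fell by 0.73 at 48 h (SE 0.15, adjusted p = 0.00193), as the 1 called lower, or as 1 of 2 with the replicate block. TAP2, a subunit of the antigen peptide transporter, was higher by 0.40 (adjusted p = 0.0245), a call that ended without Kbr 48 h replicate 3 (0.0764) or control 48 h replicate 1 (0.0864) and turned to -0.18 with unsuffixed probe sets preferred. ABCD3, whose product lies in the peroxisomal membrane, was not called at 48 h (-0.06). ABCD4, which acts in the lysosomal handling of cobalamin, was not called either (0.31, adjusted p = 0.149), but was without Kbr 48 h replicate 3 (0.53, adjusted p = 0.00505).

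The ABCE and ABCF genes share the ATP-binding domains of this family but have no membrane domain, and act in translation and ribosome recycling. All 4 were tested and 4 rose at 48 h, against 26.9% of all tested genes called higher. ABCF1 averaged 10.11 in Kbr and 9.21 in control cultures (0.90, SE 0.13, adjusted p = 0.00015) and ABCE1 averaged 12.16 in Kbr and 11.41 in control cultures (0.75, SE 0.12, adjusted p = 0.000247). ABCF3 was at the threshold (0.81, SE 0.32, adjusted p = 0.0496), and its call ended under 14 of the alternatives. At 24 h 3 of 4 rose, against 12.4% of all tested genes, and 1 did without control 24 h replicate 1.

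Carriers that bring drugs and organic ions into the cell were mostly lower. Of 22 listed uptake and exchange carriers 6 were tested, of which 3 fell at 24 h and 5 at 48 h. The share of all tested genes called lower was 20.0% at 24 h and 32.8% at 48 h. SLCO4C1, an organic anion carrier of the kidney, averaged 8.43 in Kbr and 10.94 in control cultures at 48 h (-2.52, SE 0.25, adjusted p = 1.2e-05). The prostaglandin carrier SLCO2A1 (-1.96, SE 0.23) and SLC22A4, which carries ergothioneine and organic cations (-1.65, SE 0.16), fell as well. From 24 h to 48 h the controls of SLCO2A1 changed by -1.29 (adjusted p = 0.0184) and those of SLC22A4 by -0.75 (adjusted p = 0.0324). The sixth, SLCO4A1, a carrier of thyroid hormone, was higher by 0.30 at 48 h (adjusted p = 0.0458), and that call ended when any 1 of 11 arrays, all but control 48 h replicate 1, was left out. With the mean over a gene's probe sets, 3 of the 6 fell at 48 h. The list's median was -0.60 at 24 h and -1.24 at 48 h.

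Genes of the enzymes that make the conjugates exported by the MRPs moved both ways. Of 14 tested genes of glutathione supply and conjugation, 3 rose and 6 fell at 24 h (7 fell with the replicate block), and 3 rose and 7 fell at 48 h. Without the block 12.4% of all tested genes were higher and 20.0% lower at 24 h, and 26.9% and 32.8% at 48 h. With the block 29.4% were lower at 24 h, and the blocked shares at 48 h are not given here. Those that rose were GCLM and GCLC, the subunits of the enzyme that starts glutathione synthesis, at 3.19 (SE 0.19) and 2.19 (SE 0.26) at 48 h, and the reductase GSR at 0.90 (SE 0.15). GSS, the synthetase of the next step of the same synthesis, fell at 24 h (-0.81, adjusted p = 0.000928) and at 48 h (-1.34, SE 0.12, adjusted p = 7.24e-06). Among the glutathione transferases, which join it to substrates, GSTZ1 (-2.69, SE 0.21), GSTT1 (-2.34, SE 0.15) and GSTK1 (-2.22, SE 0.15) fell at 48 h. GSTA4 (-1.51), MGST2 (-0.82) and MGST3 (-0.68) were called lower at 48 h as well. GSTP1 (0.22, adjusted p = 0.345), MGST1 (0.17, adjusted p = 0.166), GSTO1 (-0.12, adjusted p = 0.385) and GSTM3 (0.0013, adjusted p = 0.995) were not called. Of 7 tested genes of glucuronide and sulfate conjugation 1 rose and 5 fell at 48 h, and 6 fell with the replicate block. UGDH, which makes UDP-glucuronate, rose to 13.07 in Kbr cultures against 11.67 in controls (1.40, SE 0.17, adjusted p = 5.08e-05), while the sulfotransferase gene SULT1A1 averaged 8.68 in Kbr and 10.43 in control cultures (-1.75, SE 0.15, adjusted p = 5.3e-06).

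NRF2 is a transcription factor that is freed from its inhibitor KEAP1 under oxidative or electrophilic stress, and several MRP genes, ABCC3 among them, are known as its targets in other cells. Of 17 tested NRF2-type targets outside the transporters, 12 rose at 24 h, against 12.4% of all tested genes. At 48 h 15 of the 17 rose, against 26.9% of all tested genes. The list's medians were 0.98 at 24 h and 1.47 at 48 h. With the replicate block 16 rose at 24 h, and 16 rose and 1 fell at 48 h. The shares of all tested genes in the blocked fit are not given here for these comparisons. These blocked counts thus have no like share beside them. HMOX1, the haem oxygenase, rose by 3.77 at 48 h (SE 0.24), OSGIN1 by 2.92 (SE 0.54) and the cystine carrier SLC7A11 by 2.77 (SE 0.56). The 2 that were not called at 48 h were PGD (-0.27, adjusted p = 0.121, and 0.00866 with the replicate block) and TKT (0.35, adjusted p = 0.140, and 0.000761 with the replicate block) of the pentose phosphate pathway. TKT was called higher at 48 h with the mean of its probe sets (1.09, adjusted p = 0.00223) and with unsuffixed probe sets preferred (2.59, adjusted p = 2.6e-05). In the same cultures none of the 5 tested efflux transporters was called higher, while ABCC2 and ABCG2 did not pass the filter and were not tested. ABCC3 was lower at both times on 208161_s_at, and on 242553_at it differed by 0.085 at 24 h and by -0.015 at 48 h. A part of NRF2 in the transporter values was not tested. These lists were compiled with earlier results of the same arrays known, so their direction is not independent evidence.

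Of 25 listed regulators of transporter genes 16 were tested, and 7 rose and 3 fell at 48 h. At that time 26.9% of all tested genes were higher and 32.8% lower. The small MAF genes MAFF and MAFG, whose products pair with NRF2, rose by 1.85 (SE 0.19) and 1.79 (SE 0.20). PPARA, a nuclear receptor of fatty acid metabolism, fell by 1.43 at 48 h (SE 0.20, adjusted p = 0.000134). Controls of PPARA averaged 7.83 at 24 h and 8.54 at 48 h (0.70, adjusted p = 0.0765, and 0.00180 with the replicate block). NFE2L2, which encodes NRF2 itself, was higher by 0.91 (SE 0.24, adjusted p = 0.00783), RXRA, the partner of many nuclear receptors, was lower by 1.41 on the log2 scale (fold change -1.41, SE 0.21), and AHR, the dioxin receptor, was not called (0.05, adjusted p = 0.716). Of the genes outside the 7 transporters, NFE2L2, AHR, PGD, TKT, GSR, GSS, GSTK1, SLCO4A1, KRT18 and EPCAM were chosen after their values were seen. So were the glutathione transferase genes GSTA4, GSTM3, GSTO1, GSTP1, MGST1, MGST2 and MGST3. Among 6 tested genes listed for the anchoring of apical transporters at the membrane, which include the kinase gene PIM1, 2 fell at 48 h, close to the 32.8% of all tested genes that were lower. With the replicate block MSN, which encodes moesin, was called lower as well (-0.20, adjusted p = 0.0355, against 0.0920 without the block). The first 2 were PDZK1, a scaffold of the brush border, which averaged 9.77 in Kbr and 11.19 in control cultures (-1.41, SE 0.23, adjusted p = 0.000322), and RDX, which encodes radixin (-0.80, SE 0.09, adjusted p = 2.38e-05). Controls of PDZK1 averaged 10.45 at 24 h, and their change to 48 h was 0.73 (adjusted p = 0.0936, and 0.0112 with the replicate block).

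**Figure D4:**
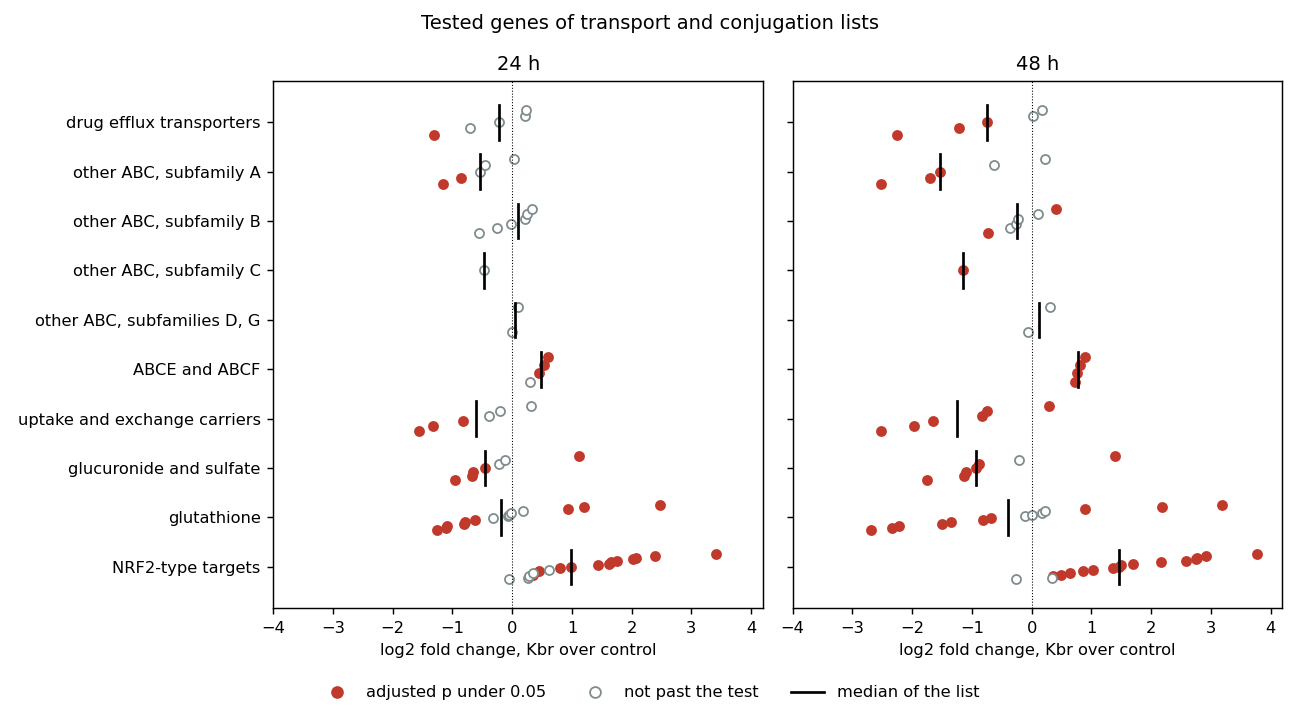
Log2 fold change of Kbr over control for the tested genes of each list at 24 h (left) and 48 h (right); red points passed an adjusted p of 0.05, open points did not, and the black bar is the list's median. At 48 h the efflux transporters had a median of -0.75, the uptake carriers -1.24, the NRF2-type targets 1.47 and the ABCE and ABCF genes 0.78.

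Markers of cell types moved in the same cultures. The summed level of the 10 proximal tubule markers, taken on the linear scale and given as log2, was 12.3 to 12.7 in Kbr and 12.9 to 13.2 in control arrays at 24 h, and 11.8 to 11.9 in Kbr and 12.8 to 13.2 in control arrays at 48 h. The 2 tested tubule markers went opposite ways: CDH6 fell at 24 h (-1.06) and at 48 h (-2.57, adjusted p = 7e-06), whereas PAX8 rose at 24 h (0.55, adjusted p = 0.0188) and at 48 h (0.56, adjusted p = 0.00877). The PAX8 call at 24 h ended without Kbr replicate 1 (0.0614) or 3 (0.0696) or control replicate 1 (0.0585) or 2 (0.0591) of that time, and the one at 48 h with unsuffixed probe sets preferred (0.0792). Of the 5 markers of simple epithelium 2 fell at 24 h, and 4 with the replicate block, and at 48 h 4 fell and 1 rose. Without the block 20.0% of all tested genes were lower at 24 h, and 32.8% were lower and 26.9% higher at 48 h. With the block 29.4% were lower at 24 h. At 48 h the cadherin CDH1 fell by 2.60, the keratin KRT19 by 1.95, KRT8 by 0.69 and the adhesion molecule EPCAM by 0.52, while KRT18 rose by 0.43. The calls of KRT8 and KRT18 at 48 h were lost in 6 and 3 of the fits that left out 1 array, with adjusted p up to 0.157 and 0.101. Their summed level was 14.2 to 14.4 in Kbr and 14.6 to 14.9 in control arrays at 24 h, and 14.1 to 14.3 in Kbr and 14.5 to 14.8 in control arrays at 48 h. Of the 6 fibroblast markers 3 passed the filter, COL1A1, DCN and LUM, and all 3 fell at each time, except that the LUM call at 24 h was lost when replicate 3 of the Kbr arrays (0.0720) or replicate 1 of the controls (0.0753) was left out. The sum over the fibroblast markers was 11.4 to 11.8 in Kbr and 12.4 to 12.9 in control arrays at 24 h, and 10.2 to 10.6 in Kbr and 12.3 in each control array at 48 h. Of 5 endothelial markers 1 passed, TEK, and of 3 leukocyte markers on the arrays 0 did. The part of these shifts in the transporter results was not tested.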

How the data were processed

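The deposited values are log2 GCRMA summaries made by the authors with no version stated, per the submitters' processing notes; no genome build is named, so probe sets carry no coordinates. The 54675 probe sets were named from the platform annotation; 41091 had 1 symbol, 1801 several, 11721 none and 62 were controls. Of 19775 genes 10574 passed the filter. limma 3.58.1 in R 4.3.3 (lmFit, eBayes) was fitted to all 12 arrays with two-sided tests on 8 residual and 2.87 prior degrees of freedom, and again over 22215 probe sets. After removal of group means, 18 pairs of arrays with the same replicate number correlated between 0.232 and 0.633 and 36 pairs with different numbers between -0.378 and -0.004, which shows arrays paired by number; the blocked fit had 6 residual degrees of freedom. The number of arrays limits the precision, and no scanner files or detection calls were used here.

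All 7 transporters and their probe sets were named, with the 3 genes nearest in course to each called one and the 3 largest changes per list and time, called ones first. Some of these changes are given only here. ABCF2 (0.53 at 24 h) was called higher, and PAPSS2 (-0.67 at 24 h) and UGT8 (-1.13 at 48 h) lower. The calls of ABCF2 and PAPSS2 ended in several fits that left out 1 array. ABCB8 (-0.56 at 24 h) was not called, and ABCB9 (-0.36 at 48 h) was called only with the replicate block. The 18 lists comprised the transporters, 5 lists of other ABC genes, uptake carriers, 2 conjugation lists, NRF2-type targets, regulators, anchors and 6 marker lists; SLC12A1, the 1 tested marker of other nephron segments, was not called (0.14 and 0.01 at 24 h and 48 h). Members and lists were chosen with earlier results of these data known. Alternatives were stricter thresholds, other filters, probe set choices, centring, a linear offset of 32, quantile normalization, a trended and robust prior, only the groups compared, the block and each array left out. The fit was tested on simulated data. Python 3.11.15, pandas 2.3.3 and matplotlib 3.10.9 made tables and plots.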

Additional observations from a re-analysis of the deposited data

Results flagged for a closer look

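One result stood out because the effect of Kbr differed between the 2 times by a test of the difference itself. For ABCC3 the effect at 48 h minus that at 24 h was -0.95 on the log2 scale (limma, adjusted p = 0.0345, and 0.00927 with the replicate block), with effects of -2.26 at 48 h and -1.30 at 24 h and Kbr arrays below every control array at both times. The arrays whose omission ended this call are named with it above. On the ABCC3 probe set 209641_s_at the same difference was -0.35 and did not pass (adjusted p = 0.392). Nor did it pass on 239217_x_at (-0.32, adjusted p = 0.717), 230682_x_at (-0.18, adjusted p = 0.641) or 242553_at (-0.10, adjusted p = 0.889). Among the ABCC3 probe sets the call was thus made on 208161_s_at alone. Its cause was not tested.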

How the results depend on the processing

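The count of called transporters at 48 h was 3 in each fit that left out 1 array, and 1 to 2 at 24 h, 0 to 2 for the difference between the times and 0 to 1 between the control groups. At 48 h ABCC4, at 1.68-fold, missed a 2-fold minimum. The count at 48 h was 2 with unsuffixed probe sets preferred, where ABCC3 changed by -0.015 (adjusted p = 0.958). At 24 h it was 2 with a log2 value over 6 in at least 3 arrays, with the mean of all probe sets, with centring, with an offset of 32, with a trended and robust prior, with only the groups compared and with the replicate block, and 0 with unsuffixed probe sets preferred (1 at an unadjusted p under 0.05, by limma), where ABCC3 changed by 0.085. For the difference between the times it was 0 at an adjusted p under 0.01, with a 2-fold minimum, with no expression filter, with averaged and with unsuffixed probe sets (1 to 3 at an unadjusted p under 0.05, by limma), and 2 with the block; between the control groups the block gave 1. Of the transporter probe sets, 1 was called at 24 h and 4 at 48 h with a 2-fold minimum. For the difference between the times 0 probe sets were called at an adjusted p under 0.01, with a 2-fold minimum, with no filter and with centring (4 at an unadjusted p under 0.05, by limma), 3 with the block, and 0 to 3 with 1 array left out. Over all genes the 3429 called at 24 h became 1830 at an adjusted p under 0.01 and 766 with a 2-fold minimum (2255 to 3880 with 1 array left out, the lowest without control 24 h replicate 1), and the 6306 at 48 h became 2475 with a 2-fold minimum. The 590 called for the difference between the times became 32 at an adjusted p under 0.01, 276 with a 2-fold minimum, 386 with no filter and 2140 with the block (136 without control 24 h replicate 3 to 1507 without Kbr 48 h replicate 3). The 426 called between the control groups became 31, 98 and 230 under the same first 3 settings, 0 with only the groups compared (2140 at an unadjusted p under 0.05, by limma) and 2202 with the block (28 without control 24 h replicate 3 to 655 without control 48 h replicate 3). Small differences that were not called changed sign: with averaged probe sets ABCC5 at 48 h (-0.038), ABCC1 for the difference between the times (0.025), and ABCB1 (0.11) and ABCC1 (-0.033) between the control groups, and with unsuffixed probe sets ABCC5 for the difference between the times (0.10). With 1 array left out they ranged over -0.11 to 0.19 for ABCC5 at 48 h, -0.16 to 0.030 for ABCC1 in the difference between the times, and -0.30 to 0.25 for ABCB1, -0.0078 to 0.17 for ABCC1 and -0.074 to 0.21 for ABCC5 between the control groups. The causes were not tested. The block changed no other call of a transporter gene than ABCB1 at 24 h and ABCC4 in the difference between the times and between the control groups. Fitting only the groups compared gives no separate value for the difference between the times, which uses all 4 groups. Probe sets under a log2 value of 4, ABCC2 and ABCG2 among them, limit what these arrays show.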
